A study of Homo sapiens with 3 samples.

Results

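KRT7, KRT8, KRT18 and KRT19 encode the keratins of simple epithelia, and their levels and their ratios to one another were compared in 3 bulk RNA libraries of RWPE1 cells. The 4 genes were taken by name and Ensembl identifier from the 58037 genes of the count table. The choice rested on general knowledge and used no measured value, though earlier results of these data were known. Keratins are the intermediate filament proteins of epithelial cells, and each filament is built from paired chains, a type II chain joined to a type I chain. KRT7 and KRT8 encode type II chains, whereas KRT18 and KRT19 encode type I chains. Keratin 8 with keratin 18 is the basic pair of simple epithelia and marks luminal cells in the prostate, keratin 7 and keratin 19 accompany it in ducts and glands, and keratin 5 with keratin 14 forms the filaments of basal cells.

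RWPE1 is an immortalized line of normal adult human prostate epithelial cells that is grown without serum. OLFM4 encodes olfactomedin 4, a secreted glycoprotein. Each of 3 conditions gave 1 library, from cells of genotype OLFM4-wild (the wild library), OLFM4-knockout (the knockout library) or OLFM4-active (the active-labelled library, so called because its OLFM4 count goes against the label). The kit removed ribosomal RNA from total RNA and kept the strand, and reads were paired. The study's methods describe green fluorescent protein (GFP) reporter clones made from RWPE1 cells with CRISPR/Cas9 plasmids, either double nickases that cut OLFM4 or plasmids that activate it, and RNA taken from GFP-sorted cells. In that account the activation plasmids went into the reporter cells called OLFM4-wild, and no OLFM4-active reporter cells are described. The study's results state that OLFM4-knockout cells were sorted by GFP before bulk sequencing. The comparison there is with cells named OLFM4-wild RWPE1 cells. Neither the labels nor the methods say which clones gave the libraries, or how the making of the active-labelled library differed from that of the wild library.

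With 1 library per condition there was no replicate, and no test between conditions could be fitted. Each difference below is a difference between libraries, and each interval is a 95% interval for counting error only. Depth differed, with totals of 16309906, 58837147 and 23224216 counts in the order wild, knockout and active, an order kept below wherever 3 values are given together. Levels are in CPM, counts scaled to a common library size, over library totals scaled with TMM (trimmed mean of M-values) factors. Every log2 fold change is higher with TMM than with plain totals, by 0.35 for knockout against wild, 0.11 for active against wild and 0.24 for knockout against active. OLFM4 itself had 214, 131 and 16 counts, or 11.8, 2.55 and 0.670 CPM, in the order wild, knockout and active. The lowest level was thus in the active-labelled library, which goes against its label.

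Markers of basal cells were far above those of luminal cells in each library. All 10 prostate basal markers reached 1 CPM in each library, and their summed level was 20823, 44093 and 24949 CPM in the order wild, knockout and active. Most of these sums came from the keratin genes KRT5, at 12232, 27077 and 13686 CPM, and KRT14, at 4006, 9666 and 5542 CPM. Of 15 luminal markers, KRT8 and KRT18 among them, 7 reached a mean of 1 CPM, KLK2 and TRPM8 were listed at 0, and KLK3, the gene of prostate-specific antigen, had 2, 0 and 0 counts. Without KRT8 and KRT18 the luminal list summed to 247, 247 and 162 CPM, most of it from CD24 at 229, 231 and 147 CPM. The keratins are therefore called simple epithelial and not luminal here. Neuroendocrine and endothelial markers stayed under 1 CPM, a single one of 3 leukocyte markers (CD68) reached it, and the 6 stromal markers summed to 55.3, 41.8 and 34.7 CPM. The part of changing cell types in the keratin values was not tested, and in bulk RNA fewer cells of a type and less RNA per cell cannot be told apart.

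In GRCh38, KRT7 lies on chromosome 12 from 52232520 to 52252186 on the plus strand. KRT8 lies on the minus strand of the same chromosome from 52897187 to 52949954, and KRT18 starts inside its annotated span, on the plus strand from 52948871 to 52952906. The exons of KRT8 and KRT18 overlap over 525 bases on opposite strands, which stranded counting is meant to keep apart. KRT19 lies on the minus strand of chromosome 17 from 41523617 to 41528308.

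KRT8 and KRT18 have many processed pseudogenes, copies of their mRNA elsewhere in the genome, whereas KRT7 has no named copy. This bears on the counts, since only uniquely mapped pairs were counted. Of the windows of 75 bases, the length of a read, along the main KRT8 transcript, 322 of 1710 (18.8%) occur unchanged in at least 1 of 12 KRT8 pseudogenes. For KRT18 it was 87 of 1339 windows (6.50%) with 14 pseudogenes, and for KRT7 and KRT19 it was 0 of 1551 and 0 of 1316. A pair can still be placed by its other read.

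KRT7, the type II keratin of ducts and glands, had 8358 counts in the wild library, 28757 in the knockout library and 9478 in the active-labelled library. These correspond to 460.0 CPM (450.2 to 469.9), 560.2 CPM (554 to 567) and 397 CPM (389 to 405). With TMM the knockout library was the highest and the active-labelled library the lowest. With plain totals the wild library was the highest, at 0.0512% of its counts, beside 0.0489% and 0.0408% in the knockout and active-labelled libraries. The log2 fold change of KRT7 was 0.28 (0.25 to 0.32) in the knockout against the wild library, but -0.07 with plain totals, so its direction depended on the scaling. For active against wild it was -0.21 (-0.26 to -0.17).

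KRT8, the type II keratin that pairs with keratin 18, had 5128, 11862 and 3497 counts in the order wild, knockout and active. Its level was 282 CPM (275 to 290.0) in the wild library, 231 CPM (227 to 235) in the knockout library and 146 CPM (142 to 151) in the active-labelled library. Among the 4 keratins KRT8 alone was highest in the wild library, though with plain totals KRT7 and KRT18 were highest there too. The log2 fold change of KRT8 was -0.29 (-0.34 to -0.24) in the knockout library and -0.95 (-1.01 to -0.88) in the active-labelled library, each against the wild library. With plain totals these were -0.64 and -1.06, so the direction was the same.

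KRT18, the type I partner of keratin 8, had 3211, 9804 and 3752 counts in the same order. Its level was 177 CPM (171 to 183) in the wild library, 191 CPM (187 to 195) in the knockout library and 157 CPM (152 to 162) in the active-labelled library. KRT18 thus differed least between the libraries with TMM. Its log2 fold change was 0.11 (0.05 to 0.17) in the knockout against the wild library and -0.24 with plain totals, so these counts give no direction. For active against wild it was -0.17 (-0.24 to -0.10). The study reports both KRT8 and KRT18 as reduced in OLFM4-knockout cells, and shows qRT-PCR of both beside the sequencing. The TMM value of KRT18 for knockout against wild has the other sign.

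KRT19, the smallest keratin, which lacks most of the tail of other type I chains, had 6412, 24172 and 6465 counts. Its level was 353 CPM (344 to 362) in the wild library, 471 CPM (465 to 477) in the knockout library and 271 CPM (264 to 277) in the active-labelled library. KRT19 had the largest excess in the knockout library, with a log2 fold change of 0.42 (0.38 to 0.46) against the wild library, which shrank to 0.06 with plain totals. The log2 fold change of KRT19 for active against wild was -0.38 (-0.43 to -0.33).

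**Figure D1:**
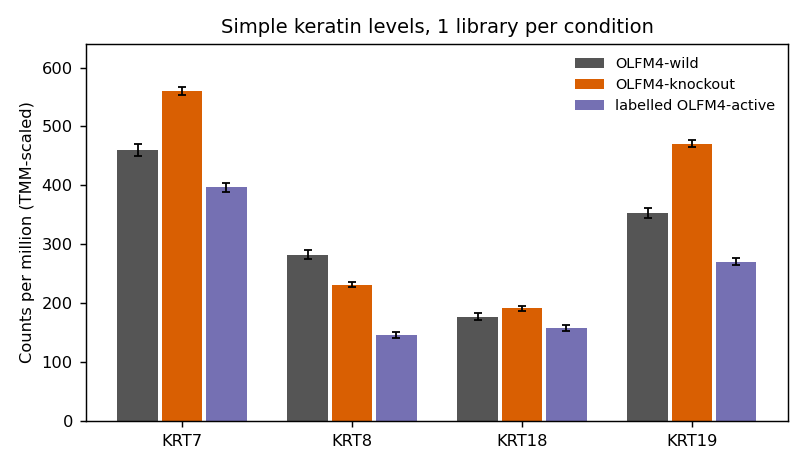
Level of KRT7, KRT8, KRT18 and KRT19 in TMM-scaled CPM (vertical axis, from 0) in the 1 library of each condition; error bars are 95% intervals for counting error only. KRT7, KRT18 and KRT19 are highest in the knockout library, at 560.2, 191 and 471 CPM, whereas KRT8 is highest in the wild library at 282 CPM.

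In the knockout against the wild library the simple keratins differed little, and with TMM in different directions. None of the 4 lay above a log2 fold change of 1, where 5.77% of the 16600 tested genes (mean of 1 CPM or more over the libraries) did, and none lay below -1, where 7.56% did. Over all tested genes this was 957 above and 1255 below, or 362 and 2350 with plain totals. The median of the 4 was 0.20, beside 0.10 for all tested genes, and with plain totals it was -0.15 beside -0.26. The place of a gene among all tested genes is not moved by a shift that all genes share. KRT19 lay above 71.3% of tested genes, KRT7 above 62.5%, KRT18 above 51.0% and KRT8 above 27.1%, so KRT18 was in the middle and KRT8 on the lower side.

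In the active-labelled library all 4 keratins were lower than in the wild library, and KRT8 by the most. None lay above 1, where 3.78% of tested genes did, and none below -1, where 6.73% did, although KRT8 passed -1 with plain totals. These were 627 genes above and 1117 below, or 472 and 1408 with plain totals. The median of the 4 was -0.30, against 0.05 for all tested genes, and -0.41 against -0.07 with plain totals. KRT8 lay above 7.4% of tested genes, KRT19 above 21.8%, KRT7 above 30.6% and KRT18 above 33.4%. The 4 keratins thus all lay in the lower part of the distribution in this comparison.

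Set against each other, the knockout library was higher than the active-labelled library for all 4 keratins, also with plain totals. The log2 fold change was 0.80 (0.76 to 0.84) for KRT19, 0.66 (0.60 to 0.71) for KRT8, 0.50 (0.46 to 0.53) for KRT7 and 0.28 (0.23 to 0.34) for KRT18. None of the 4 was above 1, where 2.95% of tested genes were, or below -1, where 3.39% were. These were 490 genes above and 563 below, or 215 and 1160 with plain totals. With plain totals the value of KRT18 was 0.04 and that of KRT19 0.56. KRT19 lay above 93.6% of tested genes, KRT8 above 89.3%, KRT7 above 81.3% and KRT18 above 66.7%. The 3 comparisons share libraries, so they are not independent of each other.

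**Figure D2:**
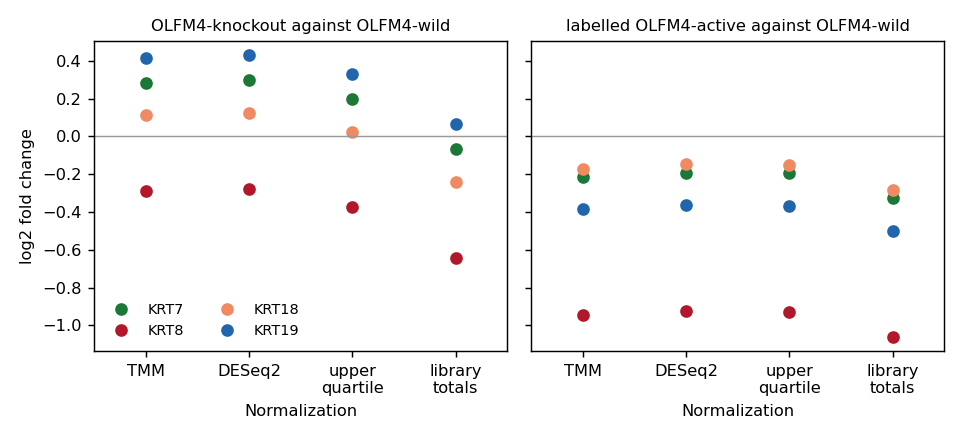
log2 fold change of the 4 keratins (vertical axis) under 4 scalings of the libraries (horizontal axis) in the knockout (left) and the active-labelled library (right), each against the wild library. Every gene shifts by the same amount, so KRT19 stays uppermost and KRT8 lowest on the left, while plain totals take KRT7 to -0.07 and KRT18 to -0.24.

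A ratio of the counts of a gene pair within a library needs no scaling between libraries, and its change does not depend on gene length. The ratio of KRT8 to KRT18, the partners of the basic simple epithelial pair, differed between all 3 libraries. KRT8 had 1.60 counts per KRT18 count (1.53 to 1.67) in the wild library, 1.21 (1.18 to 1.24) in the knockout library and 0.932 (0.890 to 0.976) in the active-labelled library. The 3 intervals, which cover counting error only, did not overlap. Against the wild library the ratio was lower by 1.32-fold in the knockout library, a log2 change of -0.40 (-0.47 to -0.33). It was lower by 1.71-fold in the active-labelled library, a log2 change of -0.78 (-0.87 to -0.68). The ratio in the knockout library exceeded that in the active-labelled library by 0.38 (0.30 to 0.45) on the log2 scale.

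Against the wild library, the other pairs show that KRT8 was the member that departed from the rest. KRT7 had 1.63 counts per KRT8 count in the wild library, 2.42 in the knockout library and 2.71 in the active-labelled library, log2 changes of 0.57 (0.51 to 0.63) and 0.73 (0.66 to 0.81) against the wild library. KRT8 had 0.80, 0.491 and 0.541 counts per KRT19 count, log2 changes of -0.70 (-0.77 to -0.64) and -0.56 (-0.64 to -0.48). In each of these 3 pairs KRT8 was lower relative to its counterpart in both other libraries than in the wild library. Between the knockout and the active-labelled library KRT8 did not stand apart in this way. There KRT8 over KRT19 changed by -0.14 and KRT7 over KRT8 by -0.16, while KRT19 over KRT18 changed by 0.52.

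The 3 ratios without KRT8 differed less from the wild library. KRT7 had 1.30 counts per KRT19 count in the wild library, 1.19 in the knockout library and 1.47 in the active-labelled library, log2 changes of -0.13 and 0.17. KRT7 had 2.60, 2.93 and 2.53 counts per KRT18 count, and the change in the active-labelled library, -0.04, had an interval that included 0 (-0.12 to 0.04). KRT19 had 2.0, 2.47 and 1.72 counts per KRT18 count, log2 changes of 0.30 and -0.21. The knockout library thus stood out by KRT19 relative to KRT18, and by less for KRT7. In the plane of the log2 fold changes against the wild library, KRT8 lay 0.87 to 0.93 from the other members, whereas KRT7, KRT18 and KRT19 lay 0.18 to 0.37 from each other.

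**Figure D3:**
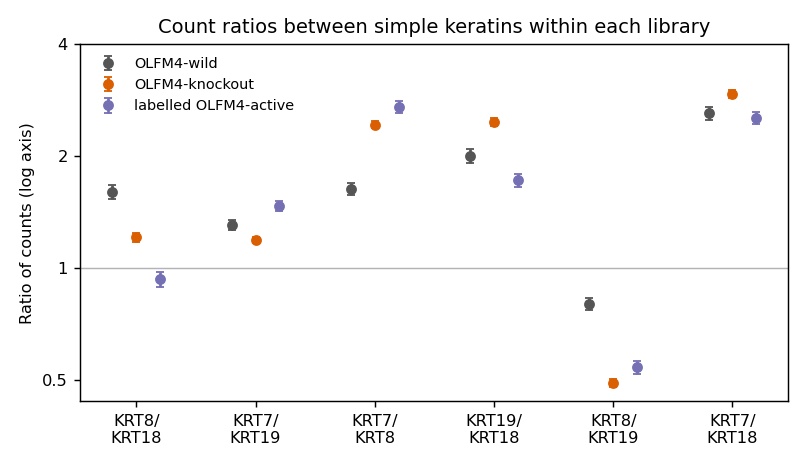
Ratio of counts within each library (vertical log axis) for the 6 pairs of simple keratins, with 95% intervals for counting error as bars; the line marks a ratio of 1. KRT8 over KRT18 goes from 1.60 in the wild library to 1.21 and 0.932 in the OLFM4-knockout and OLFM4-active-labelled libraries, and both other pairs with KRT8 also move away from their value in the wild library in both libraries.

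The same change can be read from the make-up of the simple keratins. Of the counts of the 4 genes, KRT8 held 22.2% (21.7 to 22.7) in the wild library, 15.9% (15.6 to 16.2) in the knockout library and 15.1% (14.6 to 15.5) in the active-labelled library. KRT7 held 36.2%, 38.6% and 40.9%, and KRT19 held 27.7%, 32.4% and 27.9%. KRT18 held 13.9%, 13.1% and 16.2%. The smaller share of KRT8 stood beside larger shares of KRT19 and KRT7 in the knockout library, and beside larger shares of KRT7 and KRT18 in the active-labelled library. Per kilobase of exons, the sum of the type II chains KRT7 and KRT8 over that of the type I chains KRT18 and KRT19 was 0.748 (0.728 to 0.768), 0.658 (0.649 to 0.668) and 0.721 (0.703 to 0.741). The change in the active-labelled library, -0.05 on the log2 scale, had an interval that included 0 (-0.11 to 0.002).

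Levels of different keratins could be ordered only per length, and the order depended on which length was used. Over all annotated exons, KRT19 had 151 CPM per kilobase in the wild library, KRT7 115, KRT18 57.6 and KRT8 41.0. Over the main transcript alone, the order was KRT7 at 283 CPM per kilobase, KRT19 at 254, KRT8 at 158 and KRT18 at 125. In the wild library KRT7 and KRT19 were thus above KRT8 and KRT18 with either length, while the order of KRT7 to KRT19 and of KRT8 to KRT18 depended on the length. The annotated exons of KRT8 add up to 6881 bases against 1784 in its main transcript, and those of KRT7 to 3999 against 1625. The active-labelled library was the one in which KRT8 was below KRT18 with every length tried, with KRT8 over KRT18 per kilobase at 0.416 over all exons, 0.680 over the longest transcript, 0.738 over the main transcript and 0.841 over windows not shared with pseudogenes. In the wild library the last 3 of these lengths gave 1.17, 1.26 and 1.44.

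The simple keratins were scarcer relative to the basal keratins in both other libraries than in the wild library. Per kilobase of exons, the 4 simple keratins together amounted to 7.70% (7.59 to 7.81) of KRT5 and KRT14 in the wild library, 4.04% (4.01 to 4.07) in the knockout library and 4.98% (4.91 to 5.05) in the active-labelled library. The log2 change was -0.93 (-0.96 to -0.91) and -0.63 (-0.66 to -0.60), and it was -0.30 (-0.33 to -0.28) between the knockout library and the active-labelled library. KRT5, the type II keratin of basal cells, had 12232, 27077 and 13686 CPM, and its type I partner KRT14 had 4006, 9666 and 5542 CPM. Both were thus highest in the knockout library, where their log2 fold changes against the wild library were 1.15 and 1.27 (0.79 and 0.92 with plain totals). With the pseudogene counts of the simple keratins added to their parents, the changes of the simple to basal ratio against the wild library were -0.94 and -0.63. KRT14 shares sequence with close relatives, and what that does to its counts was not tested.

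Each simple keratin was lower relative to KRT5 and to KRT14 in both other libraries than in the wild library. KRT8 changed most, from 1.39% of KRT5 per kilobase in the wild library to 0.513% in the knockout library and 0.642% in the active-labelled library, log2 changes of -1.43 and -1.11. KRT18 over KRT5 went from 1.95% to 0.95% and 1.55%, and KRT7 over KRT5 from 3.89% to 2.14% and 3.0%. KRT19 over KRT5 went from 5.10% to 3.08% and 3.5%. The direction was shared, but its size differed between the members and between the libraries. KRT19 over KRT14 was the same within counting error in the knockout library and the active-labelled library, at 4.70% and 4.71%, a log2 change of -0.003 (-0.04 to 0.04), whereas it was 8.50% in the wild library.

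Within the whole keratin family the simple keratins were a small share. Of all counts on the 55 keratin genes in the table, the 4 held 4.16% (4.11 to 4.21) in the wild library, 2.29% (2.27 to 2.31) in the knockout library and 2.98% (2.95 to 3.02) in the active-labelled library. Keratin genes took 3.41%, 5.54% and 3.35% of all counts in these libraries, so the knockout library had the largest keratin share and the smallest simple keratin part of it. By level per kilobase of exons among keratin genes, KRT19 ranked 8, 9 and 7 in the order wild, knockout and active, KRT7 ranked 9, 11 and 8, KRT18 ranked 14, 13 and 13, and KRT8 ranked 15, 16 and 15.

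**Figure D4:**
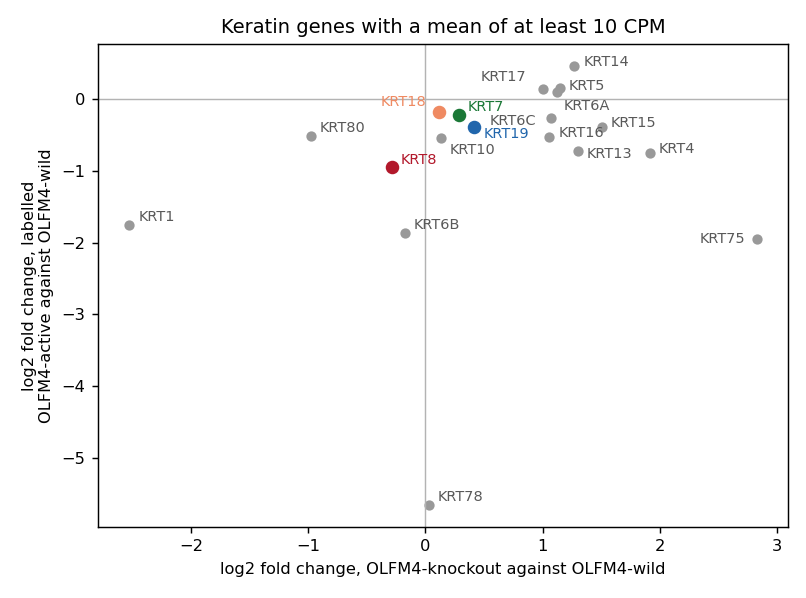
log2 fold change of each keratin gene with a mean of at least 10 CPM in the knockout (horizontal axis) and the active-labelled library (vertical axis), each against the wild library; points are genes, and the simple keratins are coloured. KRT7, KRT18 and KRT19 lie close together between 0.11 and 0.42 on the horizontal axis, KRT8 lies apart at -0.29 and -0.95, and the basal keratins KRT5 and KRT14 lie to the right at 1.15 and 1.27.

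Other keratins were described by list beside the simple ones, and no difference between lists was tested. Of 8 basal and activation keratins, 6 lay above 1 in the knockout against the wild library (1 with plain totals), where 5.77% of all tested genes did, with a median of 1.10. In the active-labelled library 1 was below -1, where 6.73% of tested genes were, with a median of -0.08. KRT15, a basal keratin, was highest of these in the knockout library at 1.5, and KRT6B, an activation keratin of wounded and stressed epithelium, was lowest there at -0.18. In the active-labelled library KRT14 was highest at 0.47 and KRT6B lowest at -1.86. The counts of KRT6B may be split with its close relatives KRT6A and KRT6C.

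Of the other keratins of simple or related epithelia, KRT80 and KRT23 were lower in both other libraries than in the wild library. KRT80 had 32.9, 16.7 and 23.1 CPM, log2 fold changes of -0.98 and -0.51. KRT23, named besides because it was the other expressed gene of this list, had 112, 57 and 22 counts, log2 fold changes of -2.47 and -2.72. KRT20, the keratin of intestinal epithelium and umbrella cells, had 2, 12 and 1 counts, too few to compare. Of 6 suprabasal keratins, 2 were above 1 and 1 below -1 in the knockout library, beside 5.77% and 7.56% of tested genes, where KRT4 was highest at 1.92 and KRT1 lowest at -2.53. With plain totals 1 was above and 2 were below, and the median went from 0.08 to -0.27. All 6 were lower in the active-labelled than in the wild library, as were the 4 simple keratins. The median of the 6 was -1.25, against 0.05 for all tested genes. Of the 6, 3 were below -1, beside 6.73% of tested genes, with KRT78 lowest at -5.66 and KRT10 highest at -0.53. The value of KRT78 (-6.46 to -5.02) rests on 18 counts in the active-labelled library, against 709 in the wild library.

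Pseudogene and antisense counts were read beside those of their parents. The 51 pseudogenes of KRT8 together had 344, 720 and 307 counts in the order wild, knockout and active, or 6.71%, 6.07% and 8.78% of the KRT8 counts. The 67 pseudogenes of KRT18 had 195, 452 and 235 counts, or 6.07%, 4.61% and 6.26% of the KRT18 counts, and the 5 of KRT19 had 1, 5 and 1. KRT8P12 on chromosome 3, with 53, 227 and 97 counts, had the most in the knockout and active-labelled libraries, while KRT8P45 had the most in the wild library with 64, and KRT8P12 went from 1.03% of KRT8 in the wild library to 1.91% and 2.77% in the others. KRT18P17 stayed between 1.12% and 1.39% of KRT18. The other copies with at least 1% of their parent's counts in a library were KRT8P3, KRT8P33, KRT8P45, KRT8P46 and KRT18P12, with 30 to 150 counts in a library. With all pseudogene counts added to their parents, the log2 change of KRT8 over KRT18 was -0.39 in the knockout library and -0.75 in the active-labelled library, close to the values without them. Only uniquely mapped pairs enter this sum, so it cannot recover pairs that fit a parent and a copy equally well.

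KRT7-AS, a long noncoding gene on the opposite strand inside KRT7, from 52245048 to 52247448, had 1804, 6611 and 2150 counts. This was 21.6% of the KRT7 counts in the wild library, 23.0% in the knockout library and 22.7% in the active-labelled library. The proportion of KRT7-AS to KRT7 thus differed little between the 3 libraries. The log2 fold change of KRT7-AS against the wild library was 0.38 (0.30 to 0.45) and -0.14 (-0.23 to -0.05), beside 0.28 and -0.21 for KRT7. With plain totals the values of KRT7-AS were 0.02 and -0.26. Of the 1693 exon bases of KRT7-AS, 282 lie opposite exons of KRT7, and leakage of the strand marking of the library kit was not tested.

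The genes whose pair of log2 fold changes against the wild library lay nearest to each keratin were sought among 1721 coding genes whose mean was 100 CPM or more, by Euclidean distance over the 3 libraries. Nearest to KRT7 were LMNB2, the lamin B2 gene, RPL12, a ribosomal protein gene, and HMGN2, a nucleosome-binding protein gene, at distances of 0.03 to 0.04. Nearest to KRT18 were TPT1, SND1 and COL7A1, at 0.02 to 0.03. KRT19 had TENT5B, LGALS3BP and FDPS at 0.05 to 0.06. KRT8 had fewer genes near it, with IFNGR1, an interferon gamma receptor gene, at 0.07, the histone gene H2BC17 at 0.11 and CALR, which encodes calreticulin, at 0.11. Within a distance of 0.1 there were 23 genes for KRT7, 26 for KRT18, 4 for KRT19 and 1 for KRT8. With 3 libraries such nearness is a description of these libraries only.

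A further list held 23 genes whose products link, bind or modify keratin filaments. In the knockout against the wild library 4 were above 1 and 1 was below -1, beside 5.77% and 7.56% of tested genes. The median of the 23 was 0.36, against 0.10 for all tested genes. With plain totals 1 was above 1 and the median was 0.01, against -0.26 for all tested genes. In the active-labelled library 3 were above 1 and 1 below -1, beside 3.78% and 6.73% of tested genes. The median there was 0.14, against 0.05 for all tested genes. HSPA8, which encodes a constitutive heat shock chaperone, had 465, 2483 and 1912 CPM and the highest log2 fold changes of this list in both libraries, 2.42 and 2.04, and it has processed pseudogenes that were not looked at here. TCHP, which encodes the keratin-binding protein trichoplein, was lowest among those with a mean of at least 10 CPM in the knockout library at -0.45, and FBF1, whose product binds keratins at cell junctions, was lowest in the active-labelled library at -0.44.

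Of 8 genes of other intermediate filaments, 5 reached a mean of 1 CPM. VIM, the vimentin gene of mesenchymal and many cultured epithelial cells, had 351, 155 and 138 CPM. It was lower in both other libraries than in the wild library, with log2 fold changes of -1.18 and -1.34, and it was the 1 gene of the list beyond 1 or -1 in each of these comparisons, where 7.56% and 6.73% of tested genes lay below -1. LMNA, the gene of lamins A and C of the nuclear envelope, was highest in the knockout library at 0.72 (0.36 with plain totals). SYNM, the synemin gene, was highest in the active-labelled library at 0.37. The medians of the 5 were 0.27 and -0.08, and the first of these turned to -0.08 with plain totals.

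Of 15 transcription factor genes known to act on simple keratin genes or in simple epithelia, 1 was above 1 and 3 were below -1 in each of the other libraries against the wild library, with medians of -0.12 and -0.48. Of all tested genes 5.77% were above 1 and 7.56% below -1 in the knockout library, and 3.78% and 6.73% in the active-labelled library. With plain totals 4 of the 15 were below -1 in the knockout library, and the median was -0.47. FOSL1, an AP-1 subunit gene, had 11.7, 45.5 and 84.6 CPM, log2 fold changes of 1.96 and 2.86. ETS2, an ETS family factor gene, had 284, 104 and 121 CPM, with log2 fold changes of -1.45 and -1.23, the lowest of the list in the knockout library among those with a mean of at least 10 CPM. ELF3, an ETS family factor gene of epithelia, had 22.9, 9.21 and 5.32 CPM, and its log2 fold change of -2.10 was the lowest in the active-labelled library. ETS2 and ELF3, like KRT8, were thus highest in the wild library. So were SP1, GRHL1, GRHL3, TFAP2C, KLF4 and GATA3 of the same list. No relation between any of these genes and KRT8 was tested.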

How the data were processed

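The deposited values are counts per gene of read pairs that mapped uniquely on the reverse strand, in 3 bulk libraries of RWPE1 cells, 1 per condition. Per the study's methods and the labels, the authors trimmed adapters with cutadapt, aligned to GRCh38 with HISAT2 and counted on GENCODE genes with featureCounts. The GENCODE release is not given in the sources used here. The deposited counts are not normalized. For their own comparison the authors used TMM factors and limma-voom. Unique mapping removes pairs that fit a pseudogene equally well, which can lower the counts of KRT8 and KRT18.

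Each column names its library by the sample description. Groups were taken from the genotype labels. Of the 58037 genes, 56948 have an identifier in GENCODE version 44, which gave positions, types and lengths. Library totals were scaled with TMM factors of edgeR 4.0.16 in R 4.3.3 (1.11, 0.872 and 1.03 in the order wild, knockout and active). The log2 fold changes were taken as in voom, with an offset of 0.5 counts. Their intervals are conditional Clopper-Pearson intervals at 95%, those of CPM and shares are Clopper-Pearson intervals, and those of ratios use the normal approximation on the log scale. All cover counting error only. Reads have no molecular identifiers. With 1 library per condition no test was run. Counts of genes beyond a log2 fold change of 1 or -1 cover 16600 genes whose mean over the libraries was 1 CPM or more.

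The rest was computed in Python 3.11.15 (pandas 2.3.3, numpy 2.4.6, scipy 1.17.1) and drawn with matplotlib 3.10.9. The calculations were tested on simulated data. The genes and the gene lists were chosen from general knowledge with earlier results of these data known. Named with values were the 4 keratins, pseudogenes and antisense genes with at least 1% of their parent's counts in a library, OLFM4, the 3 coding genes nearest to each keratin, and from each list of other keratins, filament partners, other intermediate filaments and transcription factors the highest and lowest gene with a mean of at least 10 CPM in each comparison with the OLFM4-wild library. Alternatives were plain totals, DESeq2 1.42.0 size factors, upper quartile factors, an offset of 5 counts, libraries thinned to the smallest total, pseudogene counts added to the parents, other lengths, other basal keratins, other filters and a stricter fold. The lengths of the main (Ensembl canonical) transcript and of the windows not shared with pseudogenes were added after seeing the data. Sequences of the keratin genes are not reported here.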

Additional observations from a re-analysis of the deposited data

How the results depend on the processing

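With plain library totals in place of TMM, the log2 fold changes in the knockout against the wild library were -0.068 for KRT7, -0.64 for KRT8, -0.24 for KRT18 and 0.063 for KRT19, so KRT7 and KRT18 changed direction by the construction of the scaling. In the active-labelled library against the wild library they were -0.33, -1.06, -0.29 and -0.50, and in the knockout against the active-labelled library 0.26, 0.42, 0.044 and 0.56. With upper quartile factors the values of KRT7, KRT8, KRT18 and KRT19 were 0.20, -0.38, 0.024 and 0.33 in the knockout against the wild library, and 0.39, 0.55, 0.18 and 0.69 against the active-labelled library. In libraries thinned to the smallest total, 3 values of the knockout against the active-labelled library moved past their counting interval, KRT18 to 0.36, KRT7 over KRT18 to 0.14 and KRT19 over KRT18 to 0.44, and 27 did not. With KRT15 and KRT17 added to the basal keratins, the simple to basal ratio changed by -0.88 in the knockout and -0.59 in the active-labelled library against the wild library. With no length correction the knockout values of this ratio were -0.99 against the wild library and -0.35 against the active-labelled library.

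Genes beyond a log2 fold change of 1 or -1 numbered 2212 in the knockout and 1744 in the active-labelled library against the wild library, and 1053 in the knockout against the active-labelled library. They numbered 11308, 11841 and 9918 with no filter on low counts, 810, 513 and 333 at a mean of at least 10 CPM, and 349, 339 and 72 beyond 2. The share of them that lay above 1 was 43.3%, 36.0% and 46.5% with TMM and 13.3%, 25.1% and 15.6% with plain totals, and it was 31.3% with upper quartile factors in the knockout against the active-labelled library. At a mean of at least 10 CPM it was 61.6%, 48.5% and 38.1%, with no filter on low counts 29.5%, 39.8% and 40.5%, and for genes beyond 2 it was 31.5%, 24.8% and 59.7%. DESeq2 size factors, the offset of 5 counts and the added pseudogene counts kept 15 of 15, 12 of 12 and 30 of 30 values within counting error or, for counts of genes, within 1.5 times. The order of the keratins by level per kilobase depended on the length, as given above.

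No paired analysis was possible because each condition has 1 library, and for the same reason no replicate was left out. Counting error is the one error measured here, and the spread between cultures or clones is not known. The conditions therefore cannot be told apart from the libraries, clones or culture states that stand for them.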
